A study of Mus musculus with 20 samples.

Results

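The mitochondrial ribosomal protein transcripts were taken as the genes whose symbol begins with Mrps or Mrpl followed by a digit. There were 76 of them among the 23284 genes in the files, 47 named for the large subunit (Mrpl) and 29 for the small subunit (Mrps). They were followed through RNA immunoprecipitation and sequencing (RIP-Seq) of Tet proteins in mouse embryonic stem cells (ESCs), which asked which transcripts each protein binds. Tet1-KI ESCs carried a triple tag (Flag, HA and Twin-Strep) on endogenous Tet1, Tet2-KI ESCs carried it on endogenous Tet2, and Tet2dRBD-KI ESCs carried it on a Tet2 whose RNA-binding domain had been deleted. All 3 lines were picked clones made with CRISPR-Cas9n in WT ESCs and grown in serum with leukemia inhibitory factor, so line and clone cannot be told apart. Every line gave anti-Flag IP libraries and input libraries, as 2 pairs for Tet1-KI and 4 pairs each for Tet2-KI and Tet2dRBD-KI, 20 libraries in all. The IP was made from a cytoplasmic extract and the input was total RNA. A difference between IP and input therefore cannot be told apart from a difference between the 2 RNA preparations. Control IPs with mouse IgG, which the methods describe, and control IPs without a tagged protein were not analysed here.

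Mitochondria keep their own ribosome, which makes the few membrane proteins of the respiratory chain that are encoded in mitochondrial DNA. Its ribosomal RNAs come from that DNA, but its proteins are encoded in the nucleus, translated on cytosolic ribosomes and imported. Many have a counterpart in bacterial ribosomes, while others were gained by the mitochondrial ribosome. Pluripotent cells draw much of their energy from glycolysis, and respiration rises when they differentiate.

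Libraries held between 21078995 and 37576638 expected counts. The least abundant member had between 125 and 448 expected counts in a library, so no member was close to the counting limit. In the inputs all 8 ESC markers were present, with median levels from 50.6 TPM (RSEM's level per transcript, corrected for library size and transcript length) for Zfp42 to 11258 TPM for Dppa5a. Of 15 markers of other cell types, 4 had a median under 1 TPM and none exceeded a median of 33.2 TPM. The names of the deposited libraries carried 3 different numbers, one for replicate 1, one for replicate 2 and one for replicates 3 and 4 together with Tet1-KI. What these numbers stand for is not stated, so results are also given by pair. The study gives biological replicates without saying which libraries came from separate cultures, and p-values measure only the spread between these libraries.

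The members were well expressed in ESCs, and their levels spanned more than an order of magnitude. The median member had a mean of 94.1 TPM over the 10 inputs, against 9.21 TPM for the median of the 13710 genes tested. As a set they made up 0.834% ± 0.00636 of all TPM in Tet1-KI inputs (SD, n = 2), 0.813% ± 0.0976 (SD, n = 4) in Tet2-KI inputs and 0.841% ± 0.105 (SD, n = 4) in Tet2dRBD-KI inputs. The most abundant was Mrpl12, a protein of the ribosomal stalk that recruits translation factors, at 355 ± 95.4 TPM (SD, n = 10 inputs). Mrpl20 followed at 273 ± 86.0 TPM, Mrps16 at 260 ± 39.7 TPM, Mrps21 at 259 ± 54.7 TPM and Mrpl52 at 254 ± 59.9 TPM. These 4 lay closer together than the spread over inputs, and their order is not resolved. At the other end stood Mrps22 at 13.4 ± 5.52 TPM, Mrpl41 at 14.1 ± 1.67 TPM, Mrps25 at 18.3 ± 2.90 TPM, Mrpl19 at 19.2 ± 3.69 TPM and Mrpl35 at 25.2 ± 6.38 TPM. Mrps22 and Mrpl41 overlapped in their ranges, from 4.37 to 24.9 TPM and from 10.4 to 15.8 TPM. The place of Mrpl41 depends on the length used, since its effective length was 2355 bases and its annotated transcript has 776 bases.

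**Figure D1:**
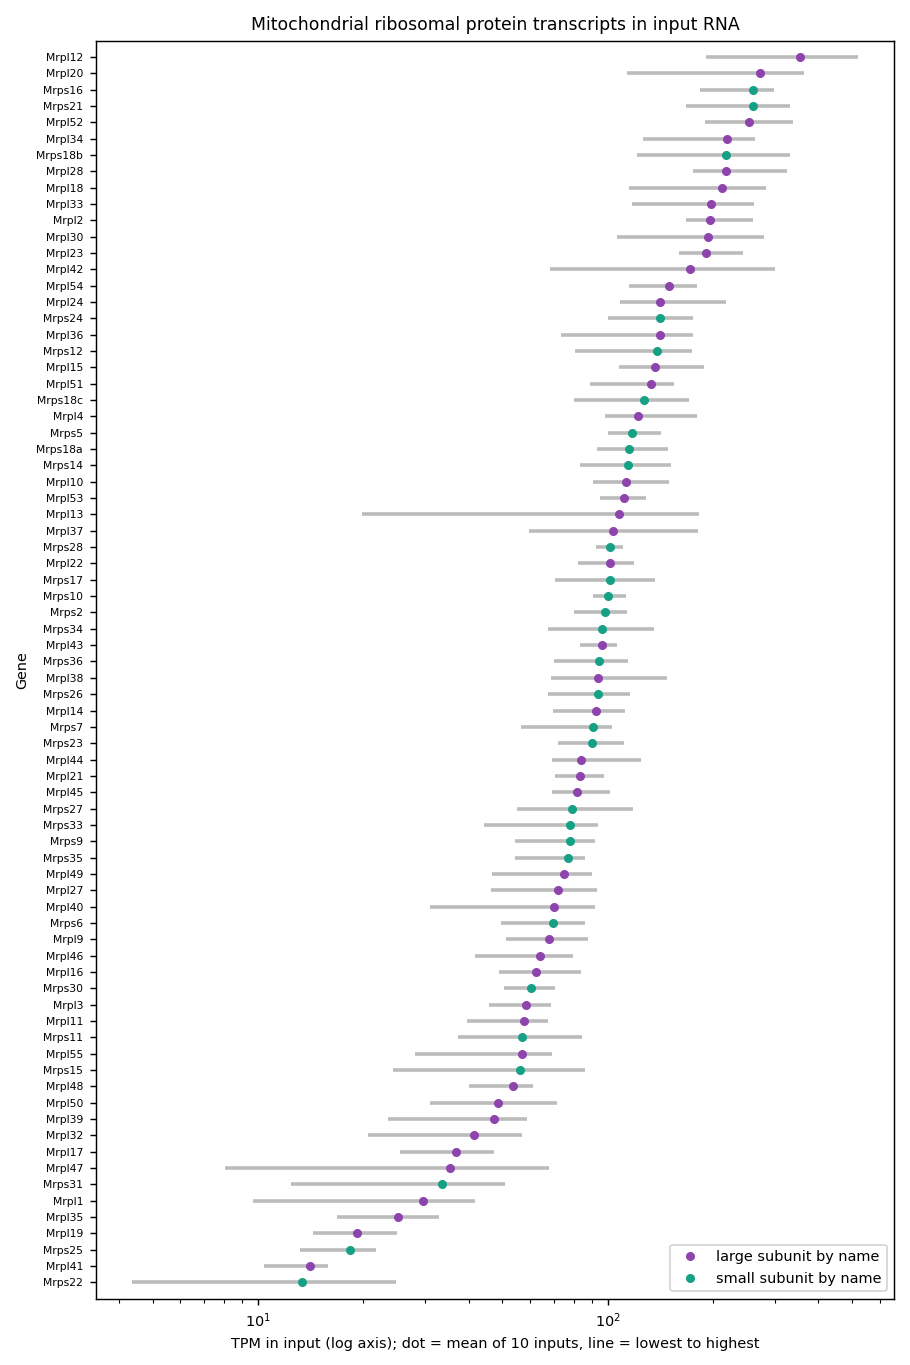
TPM of each of the 76 members in the inputs on a log axis, with a dot for the mean of 10 inputs and a line from the lowest to the highest input. Mrpl12 tops the order at 355 TPM and Mrps22 ends it at 13.4 TPM, while neighbouring genes overlap in range.

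No member was told apart between the inputs of the 2 Tet2 lines. With edgeR's quasi-likelihood test on the 10 inputs, 0 of 76 members differed between Tet2dRBD-KI and Tet2-KI input at an adjusted p under 0.05 (0.0% of 13310 genes tested). DESeq2 also gave 0 members, and so did the unadjusted threshold of 0.05, which 340 of the 13310 genes passed. The fitted log2 differences ran from -0.16 to 0.36, with a median of 0.06 against 0.05 over all genes. In these bulk samples fewer cells and less RNA per cell cannot be told apart.

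In the Tet2 IP, many members were lower relative to the other transcripts, and 1 was higher. edgeR's quasi-likelihood test, with each IP set against its own input, called 38 of 76 members lower in the Tet2-KI IP, where it called 18.5% of all 13710 genes lower. It called 1 member higher, Mrps30, where it called 14.6% of all genes higher. The median fitted log2 IP/input ratio of the members was -0.41, against 0.00 over all genes tested. In Tet2dRBD-KI 21 members were lower (27.6%, against 12.1% of all genes) and 0 were higher (7.4% of all genes), with a median of -0.24 against -0.01. DESeq2 also gave 0 higher, and so did an unadjusted p under 0.05, where 2114 of the 13710 genes were higher. In Tet1-KI, which had 2 pairs, 4 members were lower (5.3%, against 3.18% of all genes) and 0 were higher (2.72% of all genes). There DESeq2 gave 0 higher and an unadjusted p under 0.05 gave 1, against 1426 of the 13710 genes. The Tet1-KI median was -0.18 against -0.04 over all genes. All the Tet1-KI calls and most calls in the 2 other lines were lost without the term that pairs each IP with its input. The methods do not state that pairing.

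These counts depend on the scale. The fit compares counts after TMM scaling, which sets the middle of the transcriptome to about 0, whereas TPM in the IP was above TPM in the input for most genes. With limma on log2(TPM + 1) the median of all genes moved to 0.23 in Tet2-KI, 0.19 in Tet2dRBD-KI and 0.08 in Tet1-KI. On that scale 9 members were called higher and 21 lower in the Tet2-KI IP, against 35.0% and 8.12% of all genes. In Tet2dRBD-KI 8 were higher and 13 lower (23.5% and 4.59% of all genes), and in Tet1-KI 0 were higher and 6 lower (3.59% and 1.05%). Relative to the median of all genes, the members' median lay 0.42 lower in Tet2-KI with the counts and 0.32 lower with TPM, on the log2 scale. With the counts it lay 0.22 lower in Tet2dRBD-KI. These distances rested partly on single pairs, since the Tet2-KI value fell to 0.27 without Tet2-KI replicate 2. With only the libraries of Tet1-KI and of replicates 3 and 4 it was 0.20 in Tet2-KI and 0.33 in Tet2dRBD-KI, so the order of the 2 lines turned.

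**Figure D2:**
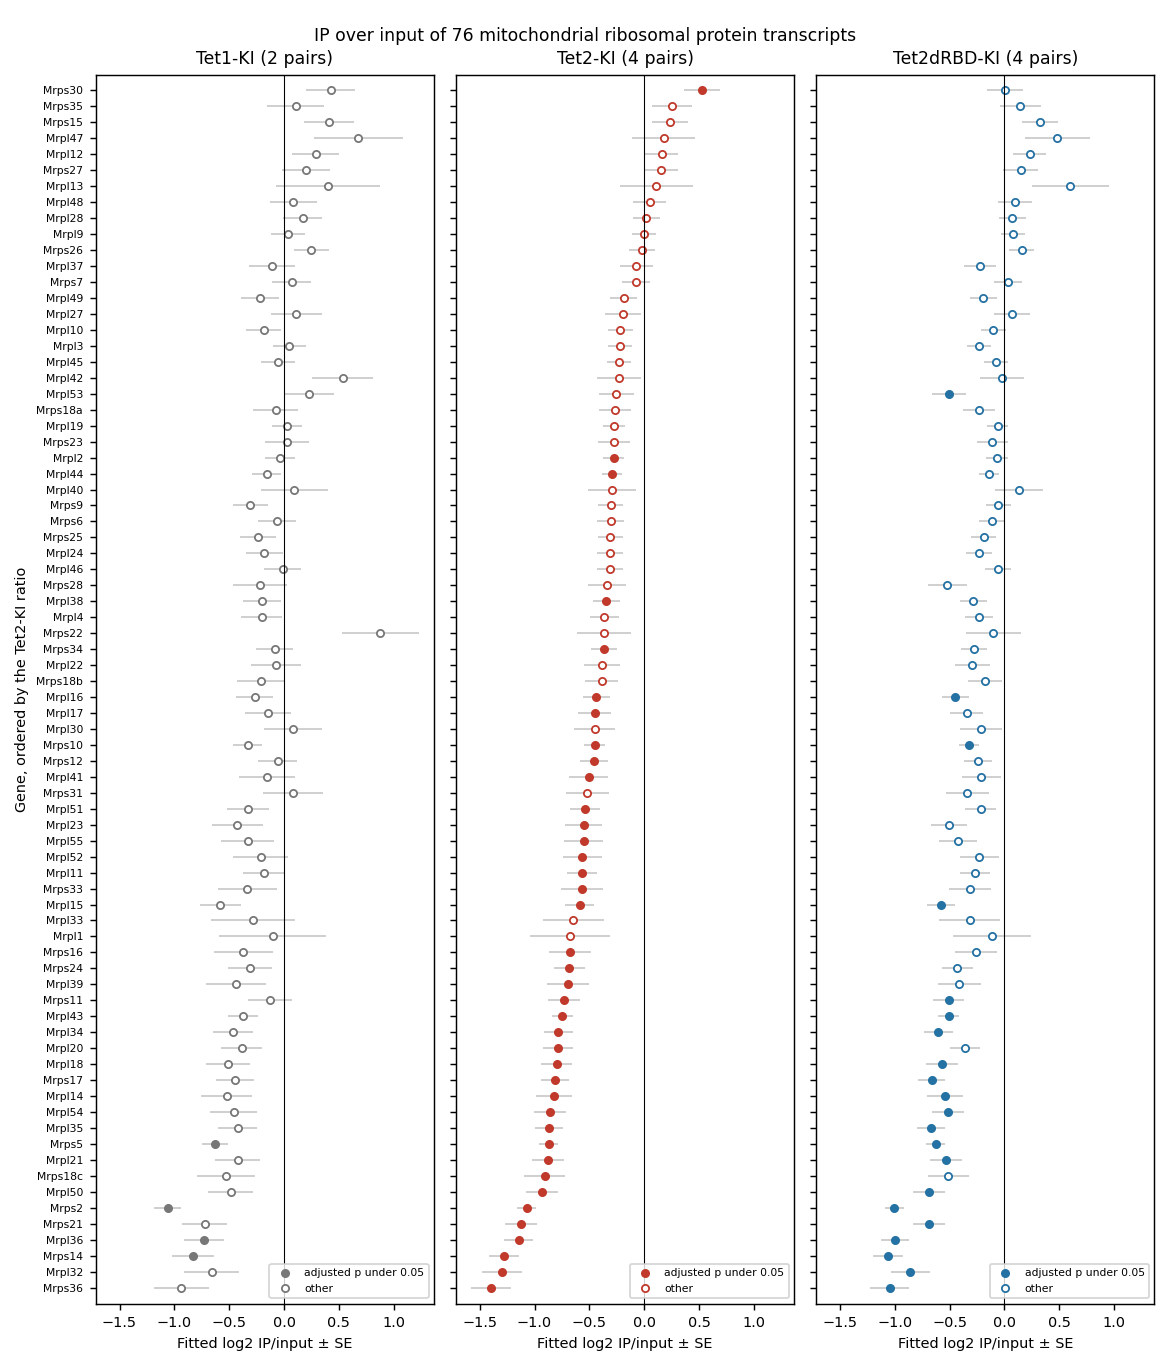
Fitted log2 IP/input with its standard error for each of the 76 members in Tet1-KI (2 pairs), Tet2-KI (4 pairs) and Tet2dRBD-KI (4 pairs), ordered by the Tet2-KI ratio. Filled dots have an adjusted p under 0.05, and they number 4, 39 and 21, all below 0 except Mrps30 in Tet2-KI.

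A stretch of coding sequence is shown for Mrps30, the member called higher, Mrps36, the member with the lowest Tet2-KI ratio, and the 4 members called lower in all 3 lines, a choice made after the values were seen. Sequence rich in U and C was a feature the study examined in its 5hmC peaks, which it found mostly in introns, whereas the stretches shown here are coding. Each is the surrounding 30 bases of the longest uninterrupted run of C and T in the coding strand, 5′ to 3′, with the run in capitals, read from GENCODE vM1 on mm9. The windows lie in coding exons at chr13:119169388-119169417 (minus strand, exon 5 of 5) for Mrps30, chr13:101509111-101509140 (minus strand, exon 3 of 4) for Mrps36, chr1:162127077-162127106 (plus strand, exon 2 of 3) for Mrps14, chr13:73468896-73468925 (plus strand, exon 2 of 2) for Mrpl36, chr2:28325174-28325203 (plus strand, exon 4 of 4) for Mrps2 and chr2:127417619-127417648 (plus strand, exon 3 of 12) for Mrps5.
Mrps30: ggaaaataCTTTTCTTTTTTCTgctaccag
Mrps36: gtctgcagcgCTCCCCTCCCactcctctgc
Mrps14: gcagTTCCTCCatcagcgtcaggtcaagtt
Mrpl36: aagccccgagTCTTCTCCTCgttcctgctg
Mrps2: taacgcacaaCTCCTCTTTgggccttcagt
Mrps5: agtgctgcgTTTCCTCTCCCggcaactgga

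Mrps30 held a run of 14 bases, a length reached by 6.6% of members and 15.1% of the 13120 tested genes with a coding sequence. Members called lower reached it too, namely Mrpl34 and Mrps16 with 14 bases and Mrpl38 with 16 bases. Mrps14 had a run of 7 bases, which was reached by 89.5% of members and 96.5% of tested genes, while Mrps5 had 11 bases and Mrps36 had 10 bases. Across the 76 members run length and the Tet2-KI ratio were nearly unrelated (Spearman's rho 0.16, as a description across genes, which share libraries and length effects). Across all tested genes rho was 0.22, and longer coding sequences offer more chances of a long run. Introns were not examined, so these values do not bear on the motif of the study.

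Transcripts named for the small subunit were among the lowest in the IPs. Mrps36 was lowest in the Tet2-KI IP. Named as a ribosomal protein, its product is also known as a subunit of the 2-oxoglutarate dehydrogenase complex. Its inputs stood at 78.5, 90.0, 113 and 114 TPM in Tet2-KI replicates 1 to 4 and the matching IPs at 45.3, 33.8, 56.7 and 52.2 TPM. The groups did not overlap, and the fitted IP level was 0.380 of input (log2 ratio -1.40 ± 0.18, SE, adjusted p = 0.00045, edgeR). In Tet2dRBD-KI the inputs were 82.8, 70.4, 109 and 100.0 TPM and the IPs 46.2, 60.5, 53.1 and 50.8 TPM, again without overlap (log2 ratio -1.04 ± 0.18, adjusted p = 0.004). In Tet1-KI the inputs of 97.9 and 88.0 TPM stood above the IPs of 59.5 and 48.4 TPM, but the ratio of -0.94 ± 0.25 did not pass (adjusted p = 0.053).

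Mrps14, a protein of the head of the small subunit with a bacterial counterpart, was lower in the IP of all 3 lines. Its Tet2-KI inputs were 83.8, 111, 152 and 140 TPM and its IPs 50.5, 44.5, 78.5 and 78.1 TPM. Tet2dRBD-KI gave inputs of 83.1, 123, 143 and 134 TPM and IPs of 48.0, 79.7, 76.4 and 76.4 TPM. Tet1-KI inputs of 88.1 and 88.4 TPM compared with IPs of 56.6 and 53.3 TPM. Every IP lay below every input of its line. The fitted log2 ratios were -1.28 ± 0.14 in Tet2-KI (adjusted p = 0.00021), -1.06 ± 0.14 in Tet2dRBD-KI (adjusted p = 0.001) and -0.83 ± 0.19 in Tet1-KI (adjusted p = 0.037).

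Mrps2, another protein with a bacterial counterpart, had the lowest ratio in Tet1-KI. Its Tet1-KI inputs of 103 and 100.0 TPM faced IPs of 55.4 and 51.8 TPM, a log2 ratio of -1.06 ± 0.12 (adjusted p = 0.014, edgeR). Tet2-KI inputs were 80.3, 114, 102 and 104 TPM and IPs 48.1, 80.0, 56.7 and 55.4 TPM (-1.07 ± 0.09, adjusted p = 7.8e-05). Tet2dRBD-KI inputs were 84.4, 109, 94.8 and 92.9 TPM and IPs 62.9, 56.6, 57.2 and 53.2 TPM (-1.01 ± 0.09, adjusted p = 0.00026). IPs and inputs did not overlap in any line, and the 3 fitted ratios lay within 1 SE of each other.

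Mrps5 and Mrps21, both with bacterial counterparts, were lower too. Mrps5 fell in all 3 lines, with log2 ratios of -0.63 ± 0.12 in Tet1-KI (adjusted p = 0.023), -0.87 ± 0.09 in Tet2-KI (adjusted p = 0.00014) and -0.63 ± 0.09 in Tet2dRBD-KI (adjusted p = 0.0013). Mrps21, one of the most abundant members, fell in Tet2-KI (-1.13 ± 0.14, adjusted p = 0.00045) and in Tet2dRBD-KI (-0.69 ± 0.14, adjusted p = 0.0098), while its Tet1-KI ratio of -0.72 ± 0.20 did not pass (adjusted p = 0.06). In replicate 1 of Tet2-KI its TPM was 181 in the input and 97.4 in the IP. In replicate 4 it was 329 and 214, so the 2 replicates differed more in level than in ratio.

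In the large subunit, Mrpl32 and Mrpl36 led. Mrpl32 is trimmed after import before it joins the ribosome. Its Tet2-KI inputs were 47.4, 24.0, 37.4 and 43.5 TPM and its IPs 24.0, 10.6, 21.2 and 22.4 TPM, with the input of replicate 2 at the level of the IP of replicate 1. Within each pair the IP was below the input, and the log2 ratio was -1.30 ± 0.18 (adjusted p = 0.00065). In Tet2dRBD-KI the pairs were unequal, with 46.0 and 36.2 TPM in input and IP of replicate 1, 20.6 and 19.7 TPM in replicate 2, 46.2 and 23.4 TPM in replicate 3 and 46.0 and 24.3 TPM in replicate 4 (-0.86 ± 0.18, adjusted p = 0.0098). Mrpl36, a very small protein with a bacterial counterpart, had Tet2-KI inputs of 74.6, 133, 163 and 176 TPM and IPs of 43.2, 60.6, 103 and 107 TPM. Here the groups overlapped, because replicate 1 was low in both, but every IP was below its own input (-1.14 ± 0.13, adjusted p = 0.00025). The fitted IP level was 0.501 of input in Tet2dRBD-KI (adjusted p = 0.001) and 0.602 of input in Tet1-KI (adjusted p = 0.043). Mrps11, lower in both Tet2 lines (-0.73 ± 0.14 and -0.51 ± 0.14, adjusted p = 0.0038 and 0.031), overlaps the opposite-strand start of Mrpl46 (mm9 chr7:85928005-85937875 and chr7:85920122-85928417). Whether strand was used in counting is not stated, so reads from the 2 genes may not be separable.

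Mrps30 was the single member higher in the Tet2-KI IP. In spite of its name, structures place this protein in the large subunit. Its Tet2-KI inputs were 67.9, 53.3, 50.4 and 51.3 TPM and its IPs 182, 66.7, 89.5 and 89.3 TPM. The IP of replicate 2 lay below the input of replicate 1, and all 4 IPs lay above their own input. The fitted IP level was 1.44 times the input (log2 ratio 0.53 ± 0.16, adjusted p = 0.028, edgeR). The call was lost without Tet2-KI replicate 1, whose pair had the highest ratio (0.40), and also without replicate 3 (0.51) or replicate 4 (0.49). It was lost too with replicates 3 and 4 summed (0.49) and without the term that pairs each IP with its input (0.64). In Tet2dRBD-KI inputs of 68.9, 51.5, 64.3 and 63.7 TPM faced IPs of 74.2, 63.0, 84.9 and 79.8 TPM, a fitted log2 ratio of 0.01 ± 0.16 (adjusted p = 0.99). In Tet1-KI inputs of 70.8 and 63.2 TPM faced IPs of 104 and 95.5 TPM (0.42 ± 0.23, adjusted p = 0.29).

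**Figure D3:**
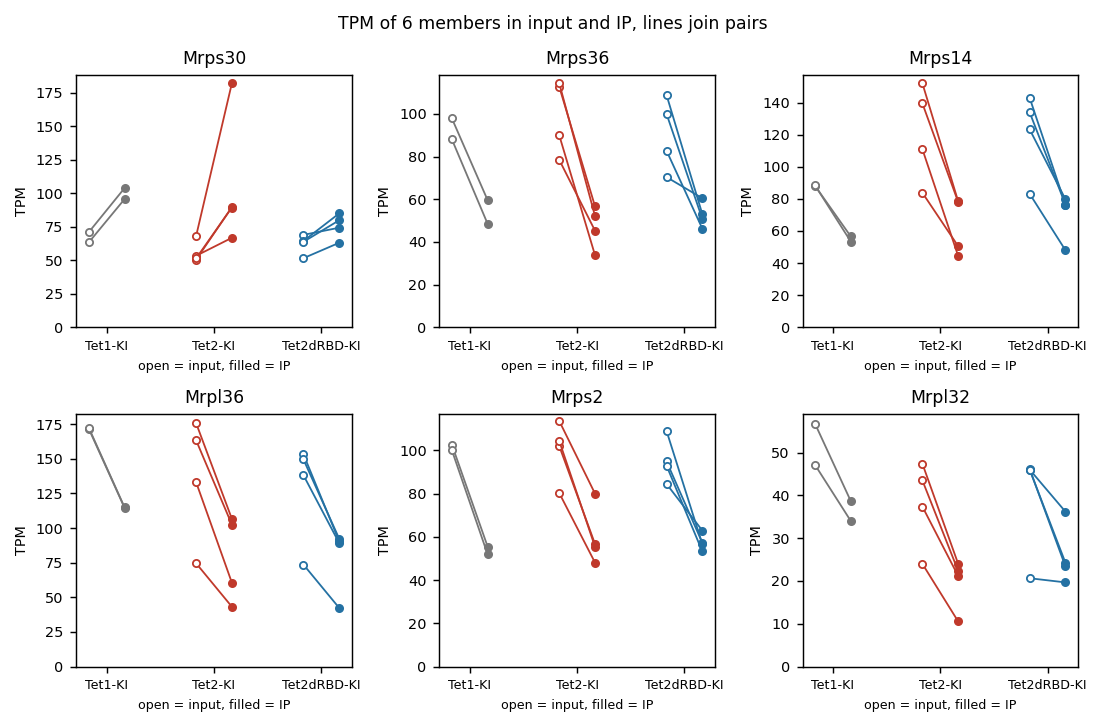
TPM of Mrps30, Mrps36, Mrps14, Mrpl36, Mrps2 and Mrpl32 in the inputs (open) and IPs (filled) of Tet1-KI, Tet2-KI and Tet2dRBD-KI, on axes from 0, with lines joining the libraries of a pair. Mrps30 rises within each of its 10 pairs, steepest in Tet2-KI replicate 1 (67.9 to 182 TPM), and the other 5 genes fall within each pair.

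Split by name into the 2 subunits, the members gave counts that stood close together. In the Tet2-KI IP 18.5% of all genes were lower and 14.6% higher. There 24 of 47 Mrpl transcripts were lower (51.1%) and 0 higher, with a median of -0.44 and the highest ratio at 0.18. Of 29 Mrps transcripts 14 were lower (48.3%) and 1 higher (3.4%), with a median of -0.39. Members with a bacterial counterpart (47) included 25 lower (53.2%) and had a median of -0.45. The 29 without one included 13 lower (44.8%) and 1 higher (3.4%), with a median of -0.32. In Tet1-KI the 4 members called lower all had a bacterial counterpart. These splits were not tested. Of the 21 members lower in Tet2dRBD-KI, 20 were also lower in Tet2-KI (95.2% of the first list and 52.6% of the second). The exception was Mrpl53, at -0.51 ± 0.16 in Tet2dRBD-KI (adjusted p = 0.046) and -0.26 ± 0.16 in Tet2-KI (adjusted p = 0.23). The 4 members lower in Tet1-KI were lower in both other lines, and 36 members were called in no line. The matching overlaps between lines were not counted over all genes, so these counts do not set the members apart from other genes.

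The study counted a transcript as bound when its TPM + 1 was higher in the IP than in the input. By that rule, applied to every pair, 14 of 76 members were above input in all 4 Tet2-KI pairs (46.5% of all genes tested) and 25 were below in all 4 (11.9%). In Tet2dRBD-KI 17 were above in all 4 pairs (31.8% of all genes) and 21 below (8.56%). In both Tet1-KI pairs 31 were above (50.9% of all genes) and 37 below (30.1%). Taking all 10 pairs together, 11 members were above input throughout (22.4% of all genes tested were), namely Mrpl9, Mrpl12, Mrpl13, Mrpl28, Mrpl45, Mrpl48, Mrps7, Mrps15, Mrps26, Mrps30 and Mrps35. Another 15 were below input throughout (5.59% of all genes), among them Mrpl20, Mrpl21, Mrpl32, Mrpl34, Mrpl35, Mrpl36, Mrps2, Mrps5, Mrps14, Mrps17, Mrps21 and Mrps36. At 1.5 times input in every pair there were 0 members in Tet2-KI (5.92% of all genes), 0 in Tet2dRBD-KI (1.29%) and 2 in Tet1-KI (9.13%).

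Pairs differed, and Tet2-KI replicate 2 stood apart from the other Tet2-KI pairs. On the TPM + 1 scale the members' median log2 ratio was -0.01, -0.41, 0.00 and 0.03 in Tet2-KI replicates 1 to 4, while the median of all genes tested was 0.23, 0.34, 0.18 and 0.11. In replicate 2 only 17 of 76 members were above input, against 37, 38 and 40 in replicates 1, 3 and 4. Tet2dRBD-KI replicate 2 went the other way, with a member median of 0.07 above a median over all genes of 0.03, and 43 members above input. Its pairs 1, 3 and 4 had medians of -0.03, -0.05 and -0.06 against 0.26, 0.24 and 0.16. In Tet1-KI the member medians were -0.03 and -0.02 against 0.05 and 0.12. Thus the members lay below the median of all genes in 9 of 10 pairs, by 0.08 to 0.75 on the log2 scale.

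**Figure D4:**
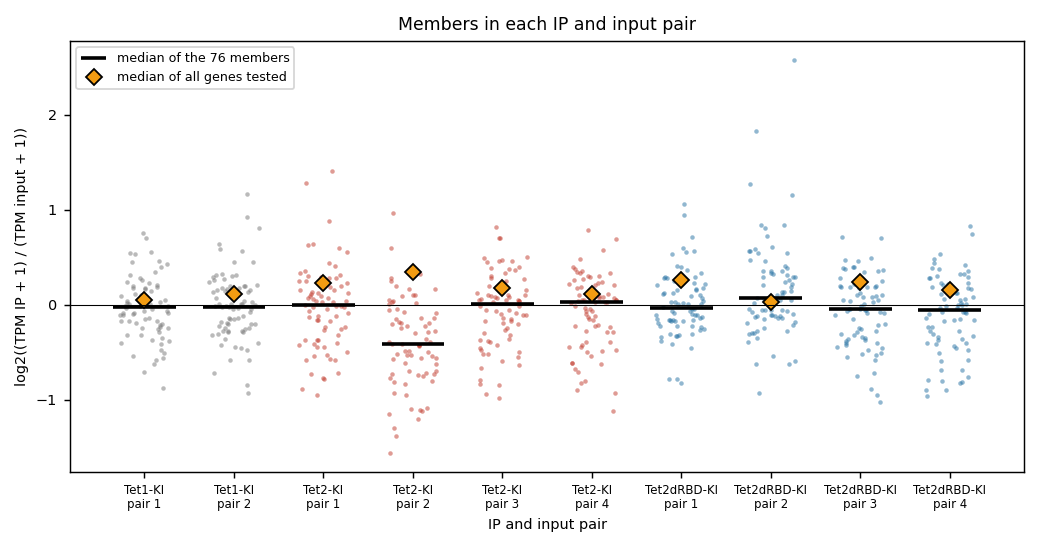
log2((TPM IP + 1)/(TPM input + 1)) of the 76 members in each of the 10 pairs, with a black line at the members' median and a diamond at the median of all 13710 genes tested. The line lies below the diamond in every pair except Tet2dRBD-KI replicate 2, and the gap is widest in Tet2-KI replicate 2, where the medians are -0.41 and 0.34.

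Leaving out single pairs changed the number of calls. Without Tet2-KI replicate 2, 24 members were lower and 1 higher in the Tet2-KI IP (15.0% and 11.5% of all genes), and without replicate 1, 25 were lower and 0 higher (10.8% and 8.99%). In Tet2dRBD-KI 8 were lower and 0 higher without its replicate 3 (4.3% and 1.51% of all genes), and 12 were lower and 0 higher without its replicate 1 (6.38% and 2.68%). With replicates 3 and 4 summed into 1 pair, 29 were lower and 0 higher in Tet2-KI (14.2% and 9.29% of all genes), 9 lower and 0 higher in Tet2dRBD-KI (4.67% and 3.12%), and 1 lower and 0 higher in Tet1-KI (0.955% and 1.37%). With the libraries of Tet1-KI and of replicates 3 and 4 alone, which share a number in the deposited names, 37 were lower and 6 higher in Tet2-KI (25.1% and 24.7% of all genes). In the same setting 50 were lower and 5 higher in Tet2dRBD-KI (24.9% and 24.2%), and 41 lower and 8 higher in Tet1-KI (27.2% and 19.6%).

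Did loss of the RNA-binding domain change the members? The difference between the Tet2-KI and Tet2dRBD-KI ratios passed for 0 of 76 members (0.0219% of all genes, which is 3 genes). DESeq2 and limma also passed 0. The unadjusted p was under 0.05 for 2, Mrpl20 and Mrps30, and for 416 of the 13710 genes tested. The median difference of the members was -0.20 on the log2 scale, against 0.00 over all genes. Of the 76 members 67 were below 0, against 6989 of the 13710 genes. That shift rested on the second replicates. It was -0.06 without Tet2-KI replicate 2, -0.08 without Tet2dRBD-KI replicate 2 and 0.05 with only the libraries of Tet1-KI and of replicates 3 and 4.

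The highest difference was that of Mrps30 (0.52 ± 0.23, SE, adjusted p = 1.0, edgeR), positive in all 4 numbered pairs at 1.30, 0.03, 0.42 and 0.47 on the TPM + 1 scale. Within replicates 3 and 4 and Tet1-KI alone it was 0.52 ± 0.09 (adjusted p = 0.023, edgeR), where 0.68% of all genes passed. Replicates 3 and 4 were close to each other, as the Mrps30 values above show, and with the pair summed into 1 replicate 0 members passed. Mrpl53 (0.25 ± 0.22) and Mrps28 (0.18 ± 0.25), which did not pass, were negative in replicate 2 and positive in the other 3. The lowest differences were those of Mrpl1 (-0.57 ± 0.51), a protein of the mobile arm at the exit site for transfer RNA, Mrpl13 (-0.49 ± 0.48) and Mrpl32 (-0.44 ± 0.25), with adjusted p = 1.0 for each. For Mrpl13 the replicate 2 input of Tet2dRBD-KI stood at 19.8 TPM, against 102, 142 and 183 TPM in the other inputs, and without that pair the difference was 0.07. Over the 76 members the standard error of this difference had a median of 0.20.

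Tet1 and Tet2 could not be separated for the members either. The Tet2-KI minus Tet1-KI difference passed for 0 of 76 (0.0% of all genes). DESeq2 also passed 0, and 4 had an unadjusted p under 0.05, against 517 of the 13710 genes tested. The median difference was -0.29 against -0.01 over all genes. Without Tet2-KI replicate 2 it was -0.13, and with only the libraries of Tet1-KI and of replicates 3 and 4 it was -0.05, against 0.04 over all genes. The widest was that of Mrps22, which had log2 TPM + 1 ratios of 0.76 and 1.17 in Tet1-KI and of 0.23, -0.14, -0.21 and -0.07 in Tet2-KI, a fitted difference of -1.24 (unadjusted p = 0.014, adjusted p = 0.94). With the libraries of Tet1-KI and of replicates 3 and 4 alone it was -1.19 ± 0.25 (adjusted p = 0.045, edgeR), where 2.35% of all genes passed, but 0 members passed with replicates 3 and 4 summed into 1 pair.

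The members are short transcripts, and short transcripts as a class were lower in the IP. The median effective length of the members in the files was 975 bases, against 2670 bases over all genes tested, and 62 of the 76 fell in the shortest quartile of genes (up to 1685 bases). In that quartile the median Tet2-KI ratio was -0.34 over all 3427 genes and -0.37 over the 62 members, and 35.3% of all its genes and 46.8% of its members were lower. For Tet2dRBD-KI the medians in that quartile were -0.24 over all genes and -0.23 over the members, with 20.7% and 25.8% lower. For Tet1-KI they were -0.15 and -0.18, with 3.4% and 3.2% lower. The part of length in the members' ratios was not tested.

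In each of the longer quartiles the median of the few members there was below the median of all genes. Of the 8 in the second quartile 5 were lower in Tet2-KI, with a median of -0.69 against -0.03 over all genes of that quartile, and Mrps27 stood above that median at 0.15, without passing. The 3 in the third quartile were all lower, with a median of -0.59 against 0.10. Of the 3 in the longest quartile 1 was lower, with a median of -0.31 against 0.28. Some of these members are shorter by annotation than by effective length, and others are longer. Mrpl41 in the second quartile had an effective length of 2355 bases and an annotated transcript of 776 bases. For Mrpl11 in the third the lengths were 2814 and 821 bases, and for Mrpl17 in the longest 6644 and 3848 bases. In the other direction, Mrps14 in the second quartile had 1902 and 2999 bases, and Mrpl15 in the third had 3743 and 4203 bases. Within the family, ratio and coding length were related more than ratio and effective length (Spearman's rho 0.45 and 0.15 in Tet2-KI over 76 genes, and 0.57 and 0.44 over all tested genes with a value, as descriptions). The median coding sequence of the members was 585 bases, and that of tested genes 1392 bases.

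**Figure D5:**
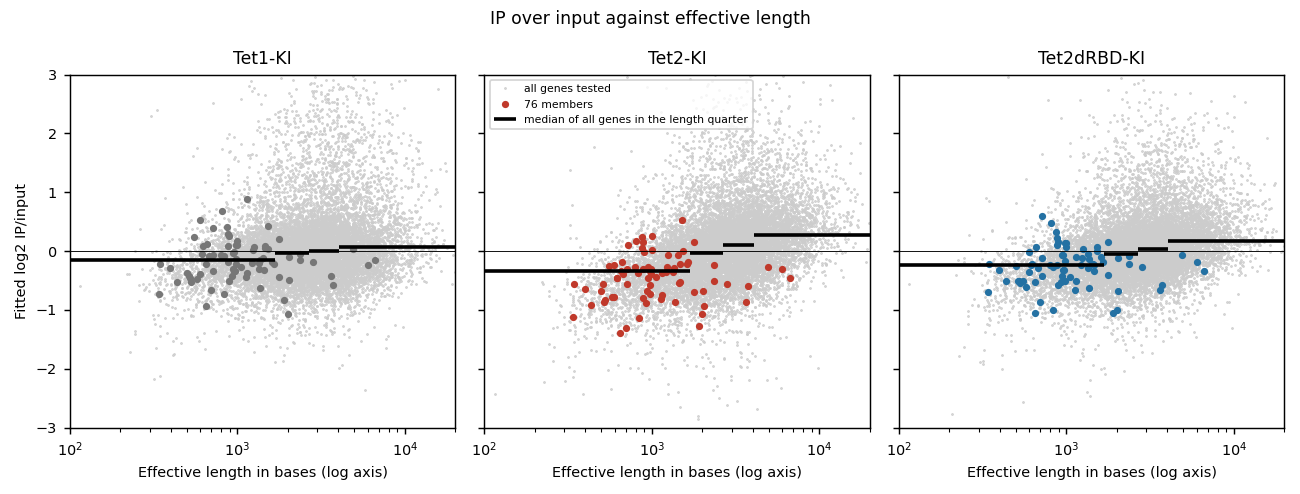
Fitted log2 IP/input against effective length (log axis) for all genes tested (grey) and the 76 members (colour) in each line, with black lines at the median of all genes in each quartile of length. The Tet2-KI medians climb from -0.34 in the shortest quartile to 0.28 in the longest, and most members sit in the shortest. Genes outside the axes (114 in Tet1-KI, 42 in Tet2-KI and 32 in Tet2dRBD-KI) are not shown.

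Other genes of mitochondrial translation were taken by function. Another 7 subunits carry other symbols in the files. Of these 4 were lower in the Tet2-KI IP and 1 was higher, where 18.5% of all genes were lower and 14.6% higher. Chchd1 (-0.96 ± 0.19, adjusted p = 0.0043), Mrp63 (-0.71 ± 0.14, adjusted p = 0.0034), Ict1 (-0.57 ± 0.16, adjusted p = 0.02) and Aurkaip1 (-0.50 ± 0.10, adjusted p = 0.0038) fell. Ptcd3, a pentatricopeptide repeat protein of the small subunit, rose (0.82 ± 0.27, adjusted p = 0.039). Chchd1, Mrp63 and Aurkaip1 also fell in Tet2dRBD-KI, and 0 of the 7 were called in Tet1-KI.

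The genes listed as translation factors gave calls in both directions. Of 14 tested, 3 were higher (21.4%, against 14.6% of all genes) and 2 lower (14.3%, against 18.5%) in Tet2-KI, shares near those of all genes, with a median of 0.11. Mtif2, the initiation factor that brings the first transfer RNA, rose in Tet1-KI (2.39 ± 0.43, adjusted p = 0.021), Tet2-KI (1.51 ± 0.30, adjusted p = 0.0039) and Tet2dRBD-KI (1.48 ± 0.30, adjusted p = 0.0087), from a mean of 2.58 TPM in the inputs. Mrrf, the ribosome recycling factor, rose in the 3 lines as well, by 1.03, 0.79 and 0.48. In Tet2-KI Guf1 was also higher (0.80 ± 0.28, adjusted p = 0.045, edgeR). The 2 lower were Tsfm (-0.53 ± 0.13, adjusted p = 0.013) and Mtfmt (-0.64 ± 0.17, adjusted p = 0.017). Tufm at -0.05 ± 0.14 (adjusted p = 0.8), Gfm1 at -0.07 ± 0.15 (adjusted p = 0.76) and Gfm2 at 0.31 ± 0.11 (adjusted p = 0.051) did not pass. The 14 genes had a median effective length of 2324 bases.

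Among 21 ribosome assembly factors 3 were higher (Fastkd2, Dhx30 and Noa1) and 2 lower (C1qbp and Mterfd2) in Tet2-KI. These shares were 14.3% and 9.5%, against 14.6% and 18.5% of all genes. Among 10 genes of mitochondrial RNA synthesis and turnover 4 were higher (40.0%, against 14.6%) and 1 was lower (10.0%, against 18.5%). The 4 were Pnpt1, which degrades RNA (1.55 ± 0.41, adjusted p = 0.015), Lrpprc, which stabilises mitochondrial messages (1.40 ± 0.25, adjusted p = 0.0025), Rg9mtd1, a subunit of mitochondrial RNase P (1.12 ± 0.32, adjusted p = 0.022), and Polrmt, the mitochondrial RNA polymerase (0.67 ± 0.11, adjusted p = 0.0014). The same 4 rose in Tet2dRBD-KI. Supv3l1, an RNA helicase, fell in Tet2-KI (-0.38 ± 0.09, adjusted p = 0.0077).

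Lower levels in the IP were also called in 2 other families of short, abundant transcripts. Over all genes tested 18.5% were lower and 14.6% higher in Tet2-KI. Of 81 cytosolic ribosomal protein genes 47 were lower (58.0%) and 1 higher (1.2%). Their median log2 ratio was -0.66 and their median effective length 642 bases. Of 78 nuclear genes of oxidative phosphorylation tested 56 were lower (71.8%) and 2 higher (2.6%), with a median of -0.65 and 597 bases. The median of the 76 members, -0.41 at 975 bases, lay between these families and all genes tested. No test of the difference between families was made.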

How the data were processed

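RIP-Seq libraries of polyA RNA were amplified with 18 PCR cycles and sequenced (a HiScanSQ per the labels, a NextSeq per the methods). Per the submitters' processing notes and the methods, the authors checked reads with FastQC, trimmed them with Trimmomatic, aligned them with Bowtie2 to the RefSeq transcriptome of mm9 and quantified genes with RSEM (versions not given in the sources used here). The deposited files hold, for each gene and library, RSEM's expected counts, which need not be whole and were not normalized, and TPM to which the authors had added 1, together with effective lengths, which the authors' RSEM run derived from transcript and fragment lengths. FPKM was not used.

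The sample titles gave the groups and the replicate numbers. Expected counts were rounded and fitted with edgeR 4.0.16 in R 4.3.3 (quasi-likelihood test, TMM scaling, genes with at least 1 CPM in 2 libraries, which left 13710 genes and all 76 members). The model held all 20 libraries, a term for each pair of IP and input and an IP effect for each line (7 residual degrees of freedom), and p-values were adjusted by Benjamini-Hochberg over all genes. Called means an adjusted p under 0.05, and lower or higher is relative to the scaled library. The methods compare IP with input without stating a pairing, and the term pairs libraries that share a number in the titles. Same-numbered libraries deviated from their group means together in Tet2-KI (correlations from 0.62 to 0.86) and Tet2dRBD-KI (0.58 to 0.84), while differently numbered ones reached 0.80 and 0.73, and 2 pairs give no check for Tet1-KI. Per-pair ratios are log2((TPM IP + 1)/(TPM input + 1)), with a pseudocount of 1, which understates changes of low genes. DESeq2 1.42.0 and limma 3.58.1 served as alternatives. The code was tested on simulated counts.

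The members and all lists were chosen with earlier results of these data known. Genes named were the up to 6 highest and 6 lowest called ratios of a line with the same sign in every pair, the 5 highest and 5 lowest mean input TPM, the 3 highest and 3 lowest differences between Tet2-KI and Tet2dRBD-KI, and subunits under other symbols. Other genes named were chosen after their values were seen. Bacterial counterparts were assigned from general knowledge. Coding lengths and coordinates come from GENCODE vM1 on NCBIM37 (mm9).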

Additional observations from a re-analysis of the deposited data

Results flagged for a closer look

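Over the groups of 4 pairs, the ratios of the named members and the members' median were examined for 1 pair far from the other 3, and 2 of 44 such groups had one. Chance gives about 1 in 20. In Tet2-KI the members' median log2 ratio on the TPM + 1 scale was -0.412 in replicate 2 and between -0.007 and 0.030 in the other 3 pairs. Mrpl53 had a log2 ratio of -0.529 in Tet2-KI replicate 2 and between 0.224 and 0.295 in the others. Both lie in the same pair of libraries, whose IP held 0.345% of its expected counts in the members, the lowest share of the 20 libraries.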

How the results depend on the processing

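Without the replicate block (the pair of IP and input), the members called fell to 0 in Tet1-KI, 6 in Tet2-KI and 1 in Tet2dRBD-KI. Means of IP above means of input counted 30 members in Tet2-KI and 40 in Tet2dRBD-KI. Shares of all genes without the block, by DESeq2 and after centring are not given here, so those counts cannot be set against them. With the replicate block, as without it, 0 members differed between the inputs of the Tet2 lines. DESeq2 called 7 members in Tet1-KI, and summing replicates 3 and 4 left 1 there and 9 in Tet2dRBD-KI. Replicates 3 and 4 with Tet1-KI alone, a setting added after seeing the data, gave 49 calls in Tet1-KI, 55 in Tet2dRBD-KI, 1 for Tet2 minus Tet2dRBD (Mrps30) and 1 for Tet2 minus Tet1 (Mrps22), with 3 residual degrees of freedom, and turned the differences of Mrpl13 (0.231) and Mrpl32 (0.131). Leaving out 1 pair gave 0 to 9 calls in Tet1-KI (0 without either of its own pairs, where the lone pair was assumed to vary like the other lines), 25 to 42 in Tet2-KI, 8 to 29 in Tet2dRBD-KI and 14 to 28 members above input in every Tet2-KI pair (28 without replicate 2). Of these ranges, shares of all genes were given above only for the lowest numbers of calls in the 2 Tet2 lines (25 and 8). The ranges therefore do not set the members apart from other genes. Leaving out 1 pair moved the Mrpl13 difference between -0.792 and 0.070, the latter without Tet2dRBD-KI replicate 2. Centred on the median ratio of expressed genes, 1 member was above input in every Tet2-KI pair and 4 in every Tet2dRBD-KI pair. At 1.5 times input the counts were 2 in Tet1-KI, 0 in Tet2-KI and 0 in Tet2dRBD-KI. Among 414 values of named members under the alternatives, 372 kept their direction and side of the threshold, 38 lost the call, 1 gained it and 3 turned. In Tet1-KI 22 of 72 lost the call. The 414 include 108 values of Tet2 minus Tet2dRBD differences, which had no call to lose. The causes were not tested. With 2 pairs, Tet1-KI had the least precision.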
